A study of Rattus norvegicus with 20 samples.

Results

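The genes described here are 10 receptors for extracellular purines, chosen by name, with earlier results of these data known. They are the ATP-gated channels P2rx2, P2rx3, P2rx4, P2rx5, P2rx6 and P2rx7, the nucleotide receptors P2ry1 and P2ry14, and the adenosine receptors Adora1 and Adora2a. They make up 10 of the 32402 genes in the tables, and all 10 were measured in every library. mRNA was sequenced in the supraoptic nucleus (SON), the hypothalamic nucleus whose magnocellular neurones make vasopressin and oxytocin, from male Wistar Han rats. The rats were adult, at 3 months, or aged, at 18 months. At each age they were either euhydrated (EH), drinking freely, or dehydrated (DH), with 5 rats in each of the 4 groups. Water was withheld for 2 days according to the labels, and for longer according to the methods of the study. The SON was collected by punching both sides of coronal slices of the hypothalamus, so each library also holds RNA of glia, vessels and adjoining tissue.

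Purinergic signalling starts when cells release ATP, which opens trimeric P2X channels to cations and activates G protein-coupled P2Y receptors. Enzymes on the cell surface then cut ATP down to adenosine, which acts on its own G protein-coupled receptors. In the SON, ATP is known to excite magnocellular neurones and to promote the release of vasopressin, whereas adenosine acting at the A1 receptor is known to restrain their firing. P2X4 and P2X7 channels are also well known in microglia.

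Each library held between 24268398 and 30348118 counted reads. Vasopressin and oxytocin mRNA (Avp and Oxt) were abundant in every library, with a sum between 197151 and 464398 normalized counts. Normalized counts are reads divided by the size factor of each library. Not one gene in the lists of cell type markers was at 0 throughout a group. Several of these lists moved with the groups and are given beside the results they accompany.

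Of the 10 receptors, 7 had a promoter sequence among those used here, which come from RefSeq on the rat assembly GRCr8 and not on the assembly the reads were aligned to. P2rx2, P2rx5 and Adora2a had none. The 250 bases before the transcription start are shown for Adora1, since it was the receptor that changed in both dehydration comparisons below, and for P2rx4, whose values were the most uneven among rats. Letters for 4 motifs were searched on both strands, and a match is printed in capitals. The motifs were TGANTCA (AP-1), TGACGTCA (the cAMP response element, CRE), TGACG (the CRE core, which also lies within the whole CRE) and GGGCGG (the GC box).
Adora1, chr13:48246832-48247081, minus strand: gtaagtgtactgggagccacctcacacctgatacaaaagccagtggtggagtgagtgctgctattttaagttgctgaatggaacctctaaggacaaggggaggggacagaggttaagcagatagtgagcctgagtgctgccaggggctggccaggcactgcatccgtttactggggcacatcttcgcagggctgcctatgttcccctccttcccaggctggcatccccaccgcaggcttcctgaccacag
P2rx4, chr12:39523090-39523339, minus strand: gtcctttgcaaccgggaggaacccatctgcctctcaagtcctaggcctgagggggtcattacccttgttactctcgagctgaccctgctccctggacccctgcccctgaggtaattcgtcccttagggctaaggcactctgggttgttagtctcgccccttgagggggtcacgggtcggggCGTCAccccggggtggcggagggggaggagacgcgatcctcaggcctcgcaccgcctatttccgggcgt
The Adora1 window held none of these letters. The P2rx4 window held 1 CRE core, on the opposite strand. Among the 33469 promoters of the same length, 6.34% held the AP-1 letters, 1.59% the CRE, 18.2% the CRE core and 30.5% the GC box. No member's window held the AP-1 or CRE letters. A CRE core was also found in the P2ry14 window and in 1 of 2 P2rx3 windows. That P2rx3 window held 1 GC box as well, and those of P2rx7 and P2ry1 held 2 each. The SON is known for strong AP-1 and CREB activity during DH, but a missing match says only that these letters are absent from this window.

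The first comparison asks how the receptors differ with age in rats with free access to water. P2rx5, the P2X5 subunit, was the receptor that changed. It was higher in aged EH than in adult EH rats by 0.92 on the log2 scale, a fold of 1.89 (95% interval 1.47 to 2.42). The other 9 receptors did not pass the test. Differences are those of log2(normalized count + 1), fitted with limma over all genes and adjusted by the Benjamini-Hochberg method, with a threshold of 0.05.

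P2rx5 (ENSRNOG00000019208) measured 106, 89.1, 123, 102 and 105 normalized counts in the 5 aged EH rats. In the 5 adult EH rats it measured 69.2, 44.6, 73.6, 52.8 and 41.2. The lowest aged rat was above the highest adult rat, so the groups did not overlap. Such a gap was seen in 6.38% of all genes tested in this comparison. The means were 105 ± 12.2 and 56.3 ± 14.5 (SD, n = 5), and the limma adjusted p was 0.00670 with a standard error of 0.168. P2rx5 was thus 1 of 10 receptors called, against 5.99% of the 15369 genes tested, of which 2.69% were higher and 3.3% lower in aged rats. Its call was kept in all 20 other ways of processing the data, with differences from 0.81 to 1.02. Its neighbours on the chromosome, Emc6 and Itgae, differed by 0.00 and -0.23 without passing the test. According to the methods of the study, adult and aged rats were sampled and sequenced side by side. In tissue of this kind, more cells of a type and more RNA per cell cannot be told apart.

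P2rx4 and P2rx7, which lie next to each other on the chromosome, were above adult values in most aged rats. P2rx4 measured 642, 496, 475, 464 and 602 normalized counts in aged EH rats, and 394, 397, 476, 458 and 412 in adult EH rats. The aged values reached higher, but the lowest of them lay within the adult range. The difference was 0.32 (95% interval 0.11 to 0.52), with a limma adjusted p of 0.0668. With DESeq2 on whole reads its adjusted p was 0.0207, the only one of its 20 alternatives to pass. The study, which called genes with DESeq2, reported P2rx4 as well as P2rx5 as raised with ageing.

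P2rx7, a channel known for opening a large pore in microglia and macrophages, measured 369, 295, 266, 333 and 351 normalized counts in aged EH rats. In adult EH rats it measured 287, 234, 284, 281 and 293. Here 4 of 5 aged rats exceeded every adult rat, and the difference was 0.22 (0.02 to 0.43), with a limma adjusted p of 0.205. Microglial markers moved in the same direction. All 7 of them had a positive difference and 3 passed the test, namely Cx3cr1 (0.30), Itgam (0.61) and Trem2 (0.58). Their summed level in aged EH rats was 7194 to 8340.0, and in adult EH rats 6007 to 6977. The part of the microglial markers in the values of P2rx4 and P2rx7 was not tested.

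The other P2X genes showed smaller or less even differences. P2rx3, a subunit best known from sensory neurones, measured 69.7 to 111 normalized counts in aged EH rats, against 54.9 to 83.2 in adult EH rats. Although 4 of 5 aged rats were above all adults, its difference of 0.32 had an interval of -0.02 to 0.67 and a limma adjusted p of 0.284. P2rx2, which can join P2rx3 in 1 channel, differed by -0.10 (-0.33 to 0.13). It was more uneven in aged EH rats, where its coefficient of variation was 20.8%, than in adult EH rats, where it was 3.93%. P2rx6, a subunit that works mainly in mixed channels, differed by 0.03 (-0.23 to 0.29).

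Neither P2Y gene passed the test. P2ry1, a receptor for ADP, measured 160 to 257 normalized counts in aged EH rats, against 197 to 219.6 in adult EH rats, with a difference of -0.08 (-0.36 to 0.19). P2ry14, a receptor for UDP-glucose, differed by -0.16 (-0.47 to 0.15). In both genes the aged rats lay on either side of the adults.

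The adenosine receptors had differences of opposite sign. Adora2a, which couples to a rise in cAMP, measured 104, 130, 125, 128 and 151 normalized counts in aged EH rats. In adult EH rats it measured 162, 142, 141, 156 and 147. The aged rats were mostly lower, but 1 of them lay within the adult range. The difference was -0.24 (-0.46 to -0.01), with a limma adjusted p of 0.217. Adora1, which couples to a fall in cAMP, differed by 0.06 (-0.01 to 0.13), with a limma adjusted p of 0.335.

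Over the 10 receptors, 6 differences were positive and 4 negative, with a median of 0.04 against 0.00 for all genes. An unadjusted p under 0.05 was reached by 4 of them, P2rx4, P2rx5, P2rx7 and Adora2a, and by 20.3% of all genes. Other markers also moved in this comparison and their part in these values was not tested. All 6 oligodendrocyte markers were negative, of which 4 passed. All 4 fibroblast and meningeal markers were negative as well, of which 2 passed, and Col1a1 differed by -1.66. Of 6 astrocyte markers 5 were negative, and Aqp4 (-0.26) and Gja1 (-0.28) passed. Of 4 endothelial markers 3 were negative, and Cdh5 (-0.35) passed. All 4 mural markers were negative, and Pdgfrb (-0.28) passed. Of 2 markers of oligodendrocyte precursors, Pdgfra was lower and passed (-0.27), while Cspg4 differed by 0.05 without passing. Neuronal lists went the other way, and none of their markers passed. All 3 cortical and amygdalar glutamatergic markers were positive, with a median of 0.82. Their sum was 1496 to 3834 in aged EH and 758 to 2999 in adult EH rats. Of 5 striatal markers 4 were positive, as were the 2 magnocellular markers, Avp and Oxt.

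**Figure D1:**
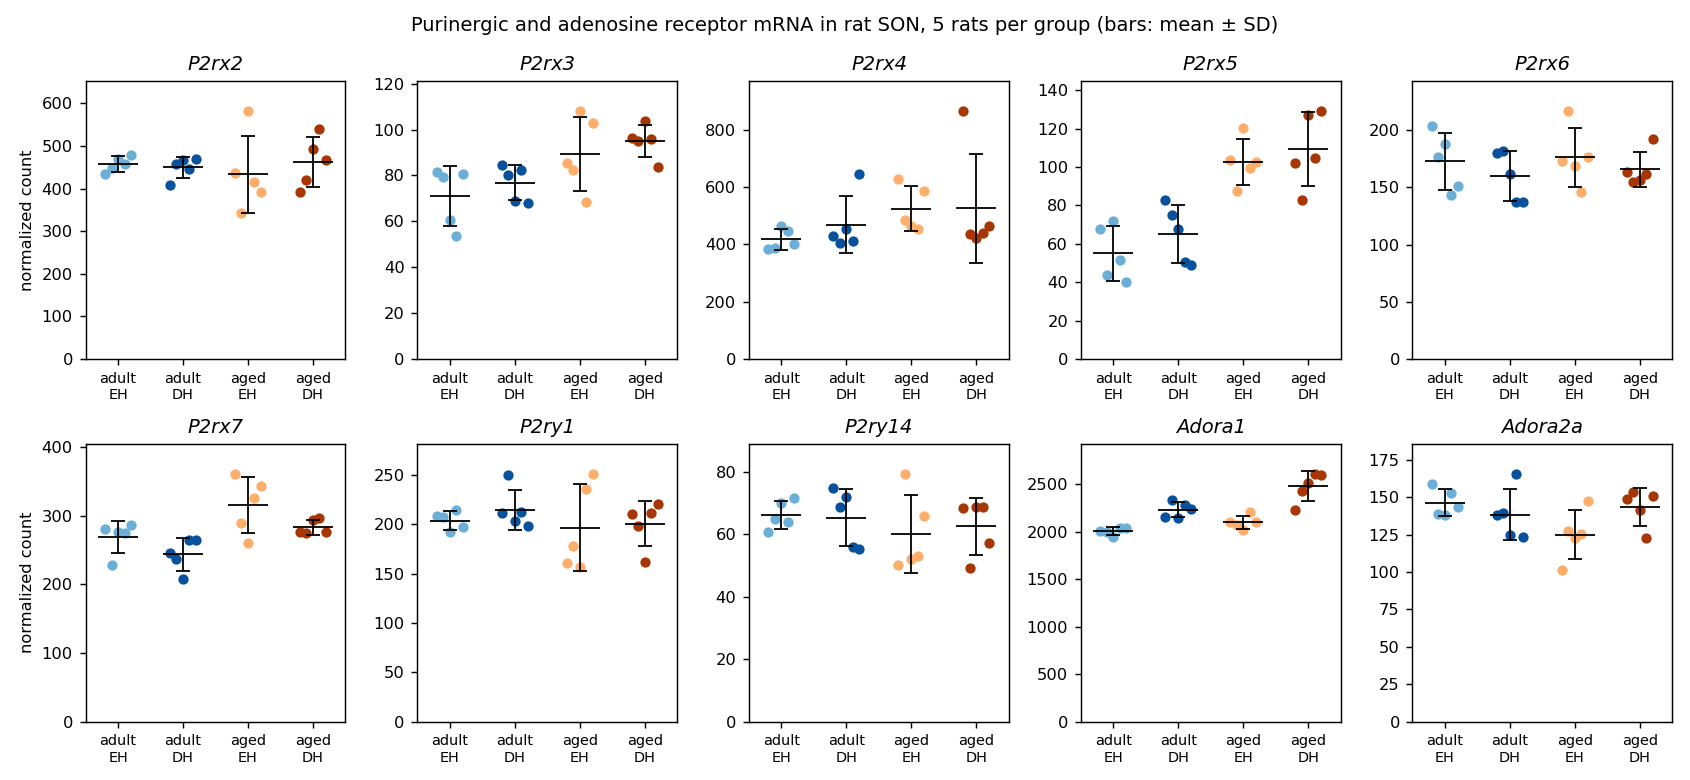
Normalized counts of the 10 receptors (vertical axes, each from 0) in adult EH, adult DH, aged EH and aged DH rats, on a common scale for all 20 libraries. Each point is a rat and the bars give the mean ± SD of 5 rats. P2rx5 was higher in both aged groups, Adora1 rose with DH at both ages, and P2rx4 had 1 high rat in each DH group.

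The second comparison asks which receptors respond to DH in adult rats. Adora1 (ENSRNOG00000003442), the inhibitory adenosine A1 receptor, was the only receptor that changed, and it rose. The rise was small, 0.15 on the log2 scale or 1.11-fold (95% interval 1.06 to 1.17), but the rats of each group lay close together. P2X and P2Y genes showed no change that passed the test.

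Adora1 measured 2118, 2289.8, 2109.9, 2239 and 2207 normalized counts in the 5 adult DH rats. In the 5 adult EH rats it measured 1976, 1969, 1913, 2006 and 2000.4. Every DH rat was above every EH rat, as was the case in 1 direction or the other for 10.9% of all genes tested. The coefficient of variation was 3.56% in DH and 1.87% in EH rats, the lowest of any member in each group of this comparison. The limma adjusted p was 0.00785 with a standard error of 0.0323. As 1 of 10 receptors called, it compares with 12.7% of the 15280 genes tested, of which 7.67% were higher and 4.99% lower in DH. It was also the only member with an unadjusted p under 0.05, which 26.9% of all genes had. The call was kept in all 20 alternatives, with differences from 0.13 to 0.17. The low gene Mybph overlaps Adora1 in the RefSeq annotation and differed by -0.32 without passing the test. P2rx3 overlaps Ssrp1 and P2ry14 overlaps Med12l, both far more abundant in adult EH rats. Ssrp1 averaged 3115 normalized counts against 69.8 for P2rx3, and Med12l 1904 against 65.1 for P2ry14. P2rx4 overlaps Camkk2 (357 against 410), and P2rx2 and P2rx6 overlap the low genes Lrcol1 and Lrrc74b. Ssrp1, Med12l and Camkk2 did not pass in any comparison, and the part of overlapping genes in the receptor values was not tested. The libraries were made with a stranded kit, but whether the counting used the strand is not given in the sources used here.

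P2rx4 had 1 rat apart from the rest in adult DH. The DH rats measured 422, 398, 444, 405 and 635 normalized counts, and the EH rats 378, 382, 456, 439.5 and 396. Without the rat at 635, the DH rats lay within the range of the EH rats. The difference was 0.15 (-0.09 to 0.39) with all rats and 0.03 without that one, and neither passed the test. The microglial marker sum of that rat was 5508, the lowest of all 20 libraries on the common scale. The part of microglia in its P2rx4 value was not tested.

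P2rx7 measured 241, 232, 204, 260.4 and 260.0 normalized counts in adult DH rats. In adult EH rats it measured 275, 225, 272, 269 and 281. The DH rats were lower apart from an EH rat at 225, and the difference was -0.14 (-0.33 to 0.04), with a limma adjusted p of 0.314. P2rx5, the gene that differed with age, ranged from 48.0 to 81.3 in DH and from 39.6 to 70.5 in EH rats. Its difference of 0.24 had a wide interval, from -0.19 to 0.67.

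The remaining receptors did not pass the test in adult rats. P2rx2 was the most narrowly bounded of them, with a difference of -0.03 and an interval of -0.14 to 0.09. P2rx3 differed by 0.13 (-0.18 to 0.43) and P2rx6 by -0.11 (-0.37 to 0.15). P2ry1 differed by 0.07 (-0.09 to 0.24) and P2ry14 by -0.03 (-0.30 to 0.24). Adora2a, the adenosine receptor that opposes Adora1 on cAMP, ranged from 121 to 163 normalized counts in DH and from 135 to 156 in EH rats, with a difference of -0.09 (-0.29 to 0.12).

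In this comparison 5 receptor differences were positive and 5 negative. Their median was 0.02, against -0.01 for all genes. Avp rose by 0.48, and 5 of 7 microglial markers and all 4 blood markers were negative, of which only Hba-a1 passed (-0.81). Of 5 markers of striatal neurones, a cell type known for Adora2a, Drd1 fell by 0.70. The other 4 did not pass the test, and 3 of them had positive differences, namely Drd2 (0.39), Gpr6 (0.21) and Ppp1r1b (0.15). Among 6 oligodendrocyte markers 5 were negative and Cnp passed (-0.27), while Cspg4, a marker of their precursors, passed in the other direction (0.23). The part of these cells in the receptor values was not tested.

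The third comparison asks the same of aged rats. Adora1 was again the only receptor that changed. It rose by 0.24 on the log2 scale, or 1.18-fold (95% interval 1.10 to 1.26).

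Adora1 measured 2268, 2477, 2565, 2663 and 2658 normalized counts in the 5 aged DH rats. In the 5 aged EH rats it measured 2147, 2111, 2062, 2248 and 2139. The groups did not overlap, but the lowest DH rat lay just above the highest EH rat. Groups were apart in 7.05% of all genes tested here. The limma adjusted p was 0.00637 with a standard error of 0.0457. Here too 1 of 10 receptors was called, against 7.29% of the 15346 genes tested, of which 4.05% were higher and 3.25% lower in DH. Again no other member had an unadjusted p under 0.05, which 21.4% of all genes had. All 20 alternatives kept the call, with differences from 0.22 to 0.27.

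Genes that rose at both ages were 445 of the 15159 tested in both dehydration comparisons, or 2.94%, and Adora1 was 1 of them. No rat was used in both of these comparisons, since each age had its own EH and DH rats. Markers of cortical and amygdalar glutamatergic neurones, cells of neighbouring regions, were lower in aged DH rats. Slc17a7 differed by -1.92 and Neurod6 by -2.49, and both passed the test. Their summed level, with Tbr1, was 674 to 1381 in aged DH and 1487 to 3828 in aged EH rats. In adult rats it was 778 to 2171 in DH and 728 to 2877 in EH, and none of these markers passed the test. All 4 blood markers were negative in aged DH, as in adult DH, and Hbb passed (-0.84). All 6 oligodendrocyte markers were positive, of which Mobp passed (0.35). The part of these cells in the Adora1 values was not tested.

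P2rx4 again had 1 rat far above the others. Aged DH rats measured 883, 445, 431, 448 and 475 normalized counts, and aged EH rats 641, 496, 475, 464 and 598. The difference was -0.04 (-0.41 to 0.32) over all rats. Without the rat at 883 it was -0.24, with a limma adjusted p of 0.171. That rat also had the lowest Adora1 and P2rx2 values of the aged DH rats. Its microglial marker sum was 8048, the highest of the aged DH group, where the others ran from 6773 to 7172. The part of microglia in the P2rx4 value of that rat was not tested.

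P2rx7 measured 282, 279, 299.8, 302 and 282 normalized counts in aged DH rats. In aged EH rats it measured 369, 295, 266, 333 and 349. The DH rats lay close together, inside the wide range of the EH rats, and the difference was -0.15 (-0.33 to 0.04), with a limma adjusted p of 0.357. Adora2a measured 151, 156, 144, 125 and 154 in DH and 103, 129.9, 125, 128 and 150.2 in EH rats. Here 3 of 5 DH rats were above every EH rat, and the difference was 0.20 (-0.03 to 0.44), with a limma adjusted p of 0.308.

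P2rx5 measured 84.4 to 132 normalized counts in aged DH and 89.0 to 123 in aged EH rats. The DH rats reached beyond the EH rats at both ends, and the difference was 0.08 (-0.21 to 0.37). P2rx2 differed by 0.11 (-0.16 to 0.37), P2rx3 by 0.10 (-0.18 to 0.39) and P2rx6 by -0.08 (-0.31 to 0.15). P2ry1 differed by 0.05 (-0.24 to 0.35) and P2ry14 by 0.07 (-0.28 to 0.41). In all of these genes the values of DH and EH rats overlapped.

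**Figure D2:**
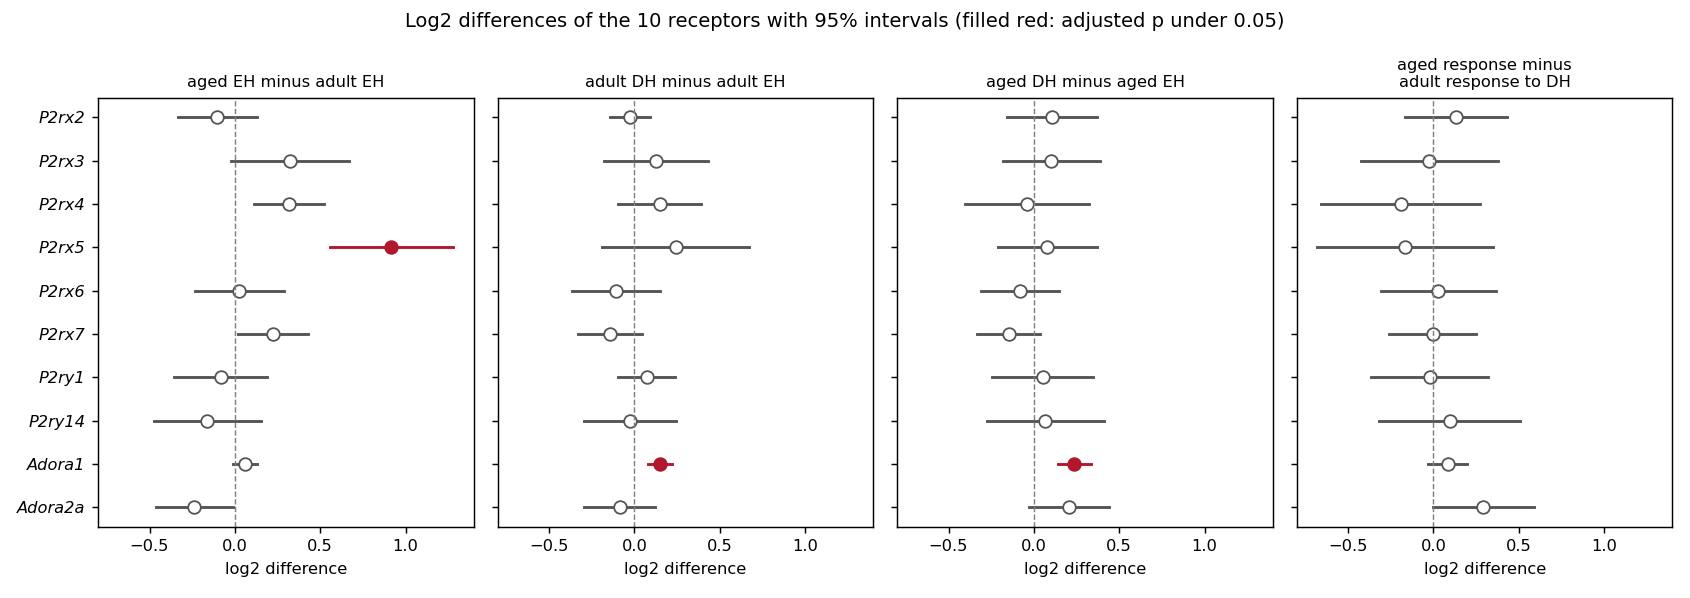
Log2 differences of the 10 receptors with 95% intervals, in panels for ageing, DH in adult rats, DH in aged rats, and the aged response less the adult response. Filled red points passed the limma test with an adjusted p under 0.05: P2rx5 with age (0.92) and Adora1 with DH in adult (0.15) and aged rats (0.24), while the fourth panel has none.

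The last comparison asks whether the response to DH itself differs between the ages, as the aged difference less the adult difference. No receptor passed the test by limma, none had an unadjusted p under 0.05, and neither edgeR nor DESeq2 called one. Over all genes, limma called 0% of 15326, although 9.93% had an unadjusted limma p under 0.05. With limma without the trend 1 gene was called. With the replicate number as a block 3 genes were called, in a fit limited to the 3 rat numbers present in all 4 groups. edgeR called 0 genes. DESeq2 called 55 of the 9086 genes to which it gave an adjusted p, and some of the receptors were not among those 9086.

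The rise of Adora1 was 0.08 larger in aged rats, with an interval of -0.03 to 0.20 and a limma adjusted p of 0.653. The interval holds 0, and its upper end exceeds the whole adult rise of 0.15. Adora2a had the widest gap between the ages, 0.29 (-0.00 to 0.59), from -0.09 in adult to 0.20 in aged rats. Its unadjusted p was 0.0528 and its limma adjusted p 0.510. For P2rx4 the difference was -0.19 (-0.66 to 0.28), and it was -0.39 without the aged DH rat at 883. The other receptors had values between -0.17 for P2rx5 and 0.13 for P2rx2.

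Set on a common scale for all 20 libraries, the receptors fell into few distinct levels. P2rx5 averaged 54.98 ± 14.1 normalized counts in adult EH, 64.9 ± 15.0 in adult DH, 103 ± 11.8 in aged EH and 109 ± 19.3 in aged DH rats (SD, n = 5). Among EH rats the ages did not overlap, as in the first comparison, where 6.38% of all genes tested showed such a gap. In DH the highest adult rat was at 82.7 and the lowest aged rat at 82.9, next to each other. The aged and adult DH groups were not compared by a test, and the share of all genes with a gap between them was not counted.

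Adora1 averaged 2009 ± 38.0 in adult EH, 2100 ± 68.7 in aged EH, 2233 ± 80.8 in adult DH and 2478 ± 159 in aged DH rats. Each group in this order overlapped the next. In the other 8 receptors every neighbour in the order of the 4 means overlapped as well. The ratio of the highest to the lowest group mean was 1.99 for P2rx5, 1.34 for P2rx3, 1.30 for P2rx7, 1.26 for P2rx4 and 1.23 for Adora1. For the remaining receptors it lay between 1.07 in P2rx2 and 1.17 in Adora2a.

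After removal of the group means, the genes that varied most like Adora1 over the 20 libraries were Nbr1 (r = 0.80), Kmt5a (r = 0.75) and Snrnp25 (r = 0.73). For P2rx5 they were Prkch (r = 0.75), Rasgrp2 (r = 0.72) and Cxcl14 (r = 0.70). These are the highest Pearson correlations among 12679 genes, given as a description, and all libraries share their normalization.

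The rest of the purine signalling system was covered by 40 further genes. With age, 3 of 32 tested passed the test, 2 higher and 1 lower, against 5.99% of all genes. In adult DH, 6 of 34 passed, 4 higher and 2 lower, against 12.7% of all genes. In aged DH, 1 of 32 passed, and it was lower, against 7.29% of all genes. None of the 32 differed in response between the ages, where Panx1 had the smallest unadjusted p, 0.00329 (limma adjusted p = 0.272).

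Of 9 further receptors, P2ry12, an ADP receptor that is a hallmark of microglia, rose with age by 0.35 (SE 0.0801, limma adjusted p = 0.0224). Its mean was 433 ± 46.5 normalized counts in aged EH rats and 340 ± 21.3 in adults (SD, n = 5). Its call was lost without aged EH rat 2 or 5 or adult EH rat 5 or 6, where the limma adjusted p lay between 0.0509 and 0.0590. In adult DH it differed by -0.29 without passing (limma adjusted p = 0.0654). P2ry12 was also the most abundant of these 9 in reads.

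Of the 10 genes for extracellular nucleotide hydrolysis, Entpd3, which cuts ATP and ADP, was 0.39 higher in aged EH rats (limma adjusted p = 0.00636), with no overlap between the groups. Enpp3, a nucleotide pyrophosphatase, fell by 0.79 (limma adjusted p = 0.0144), with 68.9 to 88.1 normalized counts in aged and 98.6 to 208 in adult EH rats. These calls were kept in all 20 alternatives.

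In adult DH the same list held 4 calls. Nt5e, the ecto-enzyme that makes adenosine from AMP, rose by 0.50 (SE 0.0787, limma adjusted p = 0.00105), from 229 ± 16.0 to 324 ± 30.3 normalized counts (SD, n = 5). In aged rats it differed by 0.31 without passing (limma adjusted p = 0.181). Its aged response less its adult response was -0.19 (-0.52 to 0.15). Entpd2 fell by 0.27 (limma adjusted p = 0.0125). Both calls were kept in all 20 alternatives.

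The other pair of calls in that list was less firm. Acpp, a phosphatase that can also turn AMP into adenosine, averaged 16.5 ± 4.56 in DH and 6.94 ± 2.51 in EH rats, a difference of 1.17 (limma adjusted p = 0.0261). Its adjusted p was between 0.0527 and 0.0730 without adult DH rat 1, 3 or 4. Enpp2, the most abundant gene of the list in reads, differed by -0.24 (limma adjusted p = 0.0482). Its call was lost without any of 6 rats (adult EH 1, 5 and 6, adult DH 1, 3 and 5), with adjusted p from 0.0756 to 0.117.

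Of the 11 genes for ATP storage and release, Panx1, the channel best known for releasing ATP, rose in adult DH by 0.35 (SE 0.0841, limma adjusted p = 0.0166). It measured 393 to 495 normalized counts in DH and 308 to 391 in EH rats, so the groups did not overlap. Its call was kept in all 20 alternatives. In aged rats it differed by -0.03 (-0.18 to 0.13). Lrrc8d, a subunit of volume-regulated anion channels, rose by 0.14 (limma adjusted p = 0.0400), a call lost without any of 7 rats (adult EH 1, 2, 4 and 6, adult DH 1, 2 and 5), with adjusted p from 0.0587 to 0.0917. Lrrc8a, the obligatory subunit of those channels and the list's most abundant gene in reads, differed by 0.05 with age, 0.09 in adult DH and 0.04 in aged DH, and passed in none.

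Of 10 genes for adenosine uptake and metabolism, Slc28a2, a sodium-coupled purine nucleoside carrier, fell in aged DH by 0.49 (SE 0.115, limma adjusted p = 0.0190). It measured 144 to 185 normalized counts in DH and 191 to 287 in EH rats. Without aged DH rat 5 the adjusted p was 0.0570. In adult DH its difference was 0.00. Ahcy, the list's most abundant gene in reads, differed by -0.03, -0.07 and 0.02 in the 3 comparisons and passed in none.

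**Figure D3:**
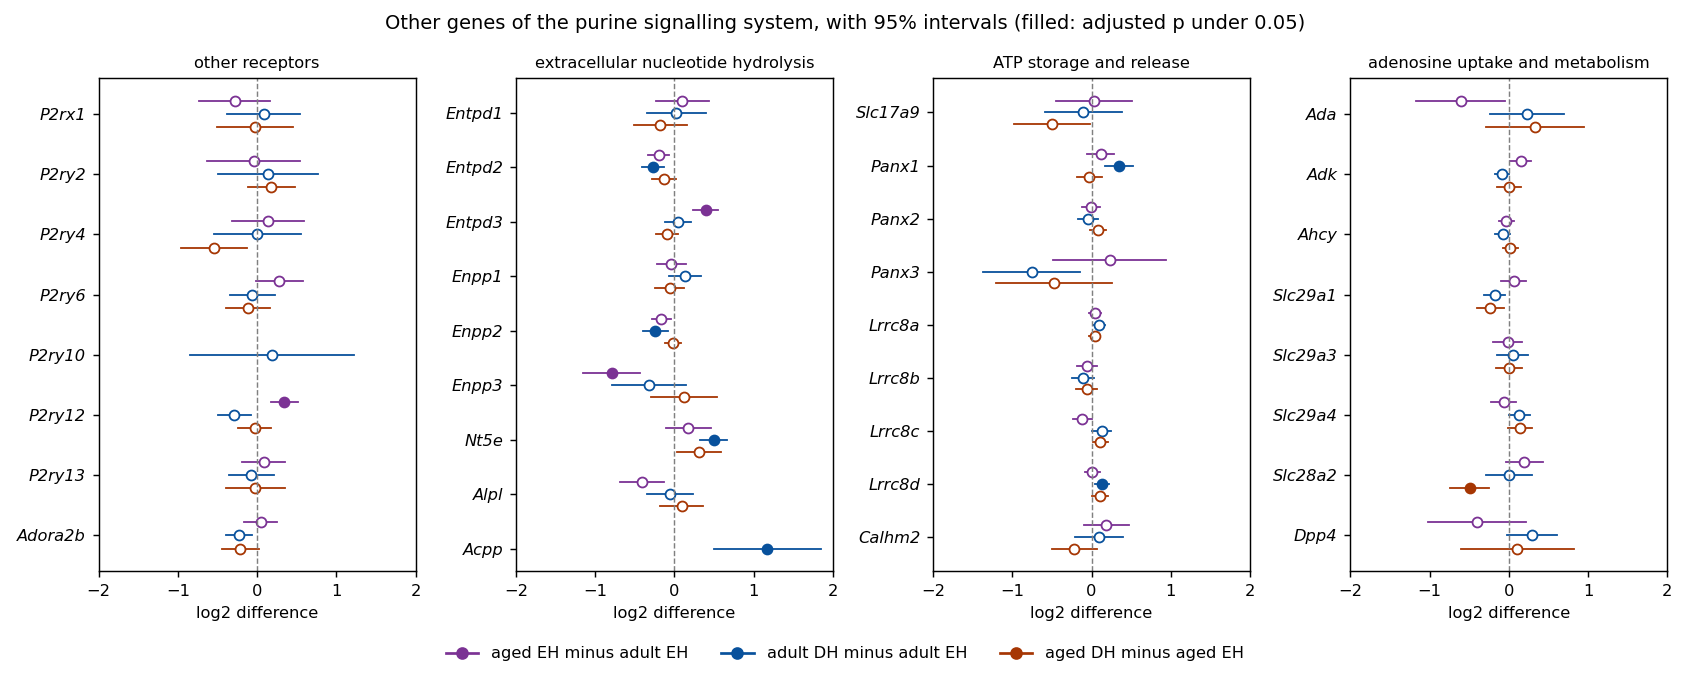
Log2 differences with 95% intervals of the other genes of purine signalling that were tested, in panels for receptors, nucleotide hydrolysis, ATP storage and release, and adenosine uptake and metabolism. Colours give the 3 comparisons and filled points passed the limma test with an adjusted p under 0.05; Nt5e and Panx1 stand out in adult DH, and Entpd3, Enpp3 and P2ry12 with age.

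**Figure D4:**
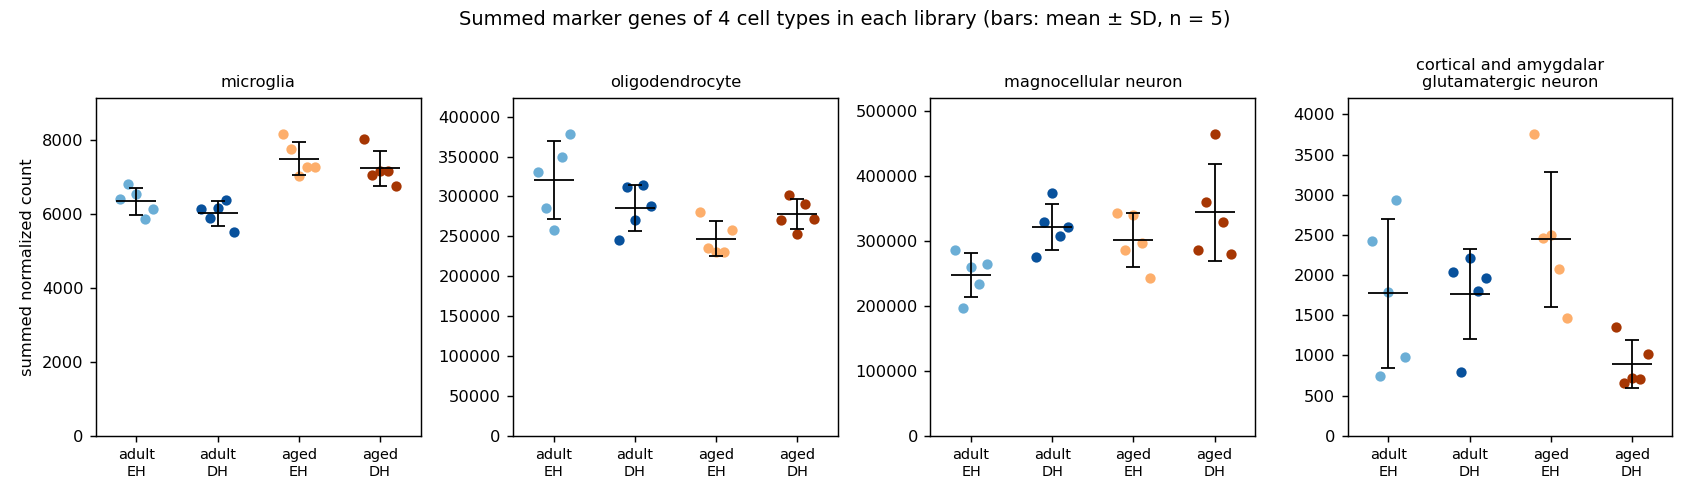
Summed normalized counts of marker genes for microglia, oligodendrocytes, magnocellular neurones and cortical or amygdalar glutamatergic neurones in each library, on a common scale, with the mean ± SD of 5 rats. The microglial sum of every adult rat, up to 6816, was below that of every aged rat except 1 aged DH rat at 6773, and the 3 lowest glutamatergic sums were those of aged DH rats.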

How the data were processed

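Poly(A) RNA of 20 rat SON libraries was sequenced with a stranded kit. Per the labels, the authors used FastQC, STAR, featureCounts and DESeq2, and the methods name the rat assembly Rn6. The signal deposited by the authors is the read count per gene divided by a DESeq2 size factor, set within each of 3 tables (ageing, adult DH and aged DH). The log2 fold changes, standard errors, Wald scores, p-values and adjusted p-values that the authors also deposited were not used. Whole reads were recovered, since all values lay within 0.1 read of a whole number, and depth is their sum. Comparisons stayed within a table, except that the difference between the ages took each rat from the DH table of its age. Levels on a common scale came from recovered reads rescaled by median ratios.

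Genes with a mean of at least 10 were tested as log2(normalized count + 1) with limma 3.58.1 in R 4.3.3, with moderation that followed the mean. All p-values are two-sided, and those of every gene in a fit were adjusted together by the Benjamini-Hochberg method. edgeR 4.0.16 and DESeq2 1.42.0 on recovered reads were alternatives, added after the data were seen except in adult DH. Scripts were tested on simulated data. The p-values cover the spread between rats, whose cages the labels do not give. According to the methods of the study, rats shared cages, and whole cages were assigned to EH or DH. Shared cages could not be taken into account in the tests. Receptors, lists of related genes and markers were chosen with earlier results of these data known. All 10 receptors were named, and other purine genes where they passed a test or were the most abundant of their list. Acp3, Pecam1 and Snap25 were not found by symbol, and Slc29a2, with more than 1 gene identifier, was left out. Further marker genes are not reported here.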

Additional observations from a re-analysis of the deposited data

Results flagged for a closer look

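Among the 40 sets of 5 rats formed by 10 receptors and 4 groups, 5 held a rat that lay far from the other 4 for the size of the set, where chance gives about 1 in 20. P2rx4 gave 2 of them: adult DH rat 5 measured 635 normalized counts against 398 to 444 in the others, and aged DH rat 1 measured 883 against 431 to 475. P2rx6 measured 197 in aged DH rat 6, where the others ran from 157 to 167. P2rx7 measured 225 in adult EH rat 2, where the others ran from 269 to 281. P2ry1 measured 245 in adult DH rat 2, where the others ran from 195 to 209. None of these 5 rats is the same as another, and no call of a receptor was gained or lost when one of them was left out.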

How the results depend on the processing

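P2rx5 with age and Adora1 with DH in adult and aged rats kept their calls under every alternative, which were another pseudocount, no or a stricter filter, equal library totals, limma without the trend, 1 fit over 20 libraries, vooma weights, the replicate block, edgeR, DESeq2 and leaving out each rat in turn. With age, DESeq2 called 2 receptors in place of 1, the other being P2rx4. Replicate numbers did not pair the rats, since correlations of same-numbered deviations ran from -0.0825 to 0.162. The replicate block kept only rats whose number occurred in every group fitted. These were 5 numbers with age, 4 in each DH comparison and 3 for the difference between the ages. Outside the ageing comparison, the block fits therefore also left out rats. With the replicate block Adora1 had limma adjusted p of 0.0407 in adult and 0.0390 in aged DH rats, and P2rx5 0.00706 with age. The genes called fell from 1934 to 980 in adult DH and from 1119 to 635 in aged DH. The block changed no other receptor's call, but ended those of Enpp2, Acpp, Lrrc8d and Slc28a2. The calls of Enpp2 and Lrrc8d were also lost with no filter and without the trend, and that of Lrrc8d with equal library totals. Over all 20 alternatives Enpp2 lost 9 calls and Lrrc8d 11. Without the trend, genes called fell from 921 to 516 with age and from 1119 to 671 in aged DH. Of 1090 values of single genes under an alternative, 50 changed sign, all in comparisons where the receptor was called by none of the tests run. Outside the omission of a rat these were P2rx6 with age (-0.0030 with equal library totals), P2rx4 in aged DH (0.0021 by edgeR and 0.0051 by DESeq2), P2ry14 in aged DH (-0.016 with the block), and, for the difference between the ages, P2rx7 (0.0064 with equal totals) and, with the block, P2rx3 (0.148), P2rx6 (-0.0752), P2ry1 (0.0739) and P2ry14 (-0.014). Omitting 1 rat gave ranges from -0.0504 to 0.0914 for P2rx6 with age, from -0.0461 to 0.0078 for P2rx2 and from -0.0795 to 0.0278 for P2ry14 in adult DH, from -0.237 to 0.0257 for P2rx4 and from -0.022 to 0.147 for P2ry1 in aged DH. For the difference between the ages they were from -0.115 to 0.0712 for P2rx3, from -0.0345 to 0.107 for P2rx6, from -0.0706 to 0.0529 for P2rx7 and from -0.095 to 0.0738 for P2ry1. With 5 rats a group, the 95% intervals of all 10 receptors in aged DH, and of all but P2rx2 in adult DH, reached beyond 0.20 in at least 1 direction.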
